A study of Mus musculus with 11 samples.

Results

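The genes described here encode the machinery by which cells store, sense and transmit transforming growth factor-β (TGF-β): the ligands *Tgfb1* and *Tgfb2*, the latent binders *Ltbp1* and *Ltbp4*, the receptors *Tgfbr1*, *Tgfbr2* and *Tgfbr3*, and the Smads *Smad3* and *Smad7*. They were picked by gene name from a list drawn up with earlier results of these data known, and make up 9 genes among the 29307 listed in the count table. The table holds 10 entries for them, because *Ltbp4* is listed under 2 identifiers, one of which (ENSMUSG00000108715) had 0 counts in all 11 libraries and is not considered further. All 9 genes passed the filter on low counts, as did 12905 genes in all.

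The libraries came from sinusoidal endothelial cells (ECs) of the liver, the fenestrated cells that line its capillaries, taken from male C57BL/6J mice 10 to 12 weeks old. The 5 germ-free (GF) mice had lived in sterile isolators, and the 6 conventionally raised (CONV-R) mice carried a microbiota under specific pathogen-free conditions. Both groups came from the same colonies and ate the same autoclaved diet, and no genetic change or drug treatment is stated for either. Each library was made from 1 mouse. Cells were enriched on CD146-coated beads and then sorted as CD31+, CD105+ and CD146+, and 20 ng of total RNA was amplified before sequencing. The study states that sorted cells were of low viability and that GF livers gave fewer of them and less RNA, so the amount and state of the starting material cannot be told apart from the microbial status.

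TGF-β is secreted as a latent complex in which its own propeptide holds the growth factor inactive. Latent TGF-β binding proteins (LTBPs) tether this complex to matrix fibres until integrins or proteases free it. The free ligand binds the type II receptor TGFBR2, which recruits the type I receptor TGFBR1, and the receptors phosphorylate the transcription factors SMAD2 and SMAD3. ECs carry in addition the type I receptor ACVRL1 and the co-receptor endoglin, and in the liver TGF-β is best known as a driver of fibrosis.

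The comparison asks whether the transcripts of this machinery differ in liver ECs when no microbiota is present. *Ltbp4* was the only one of the 9 genes that passed the test, at a level 1.49-fold higher in GF than in CONV-R mice. None of the 9 passed it in the lower direction. Of all 12905 genes tested 965 passed, or 7.48%. GF had the higher level in 620 of these (4.8% of the genes tested) and the lower in 345 (2.67%). The median log2 fold change (Log2FC, GF over CONV-R) of the 9 genes was -0.0023 and that of all genes tested was -0.01. The test was the quasi-likelihood test of edgeR at a Benjamini-Hochberg adjusted p of 0.05. DESeq2 and limma-voom likewise called *Ltbp4* alone among the 9, where DESeq2 called 9.93% of the 15460 genes it gave an adjusted p (6.02% higher and 3.91% lower in GF) and limma-voom 7.5%. At an unadjusted p of 0.05, 4 of the 9 genes would have passed, with *Ltbp4* and *Tgfbr3* higher and *Tgfb2* and *Smad3* lower. That p is common over the whole table, where the gene ranked 2966 by p among 12905 still had 0.04995 in edgeR's test. The same background applies to the counts at an unadjusted p in the lists below. For every one of the 9 genes the values of both groups overlapped, against 721 of 12905 genes (5.59%) whose groups did not, 3.22% higher and 2.37% lower in GF.

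**Figure D1:**
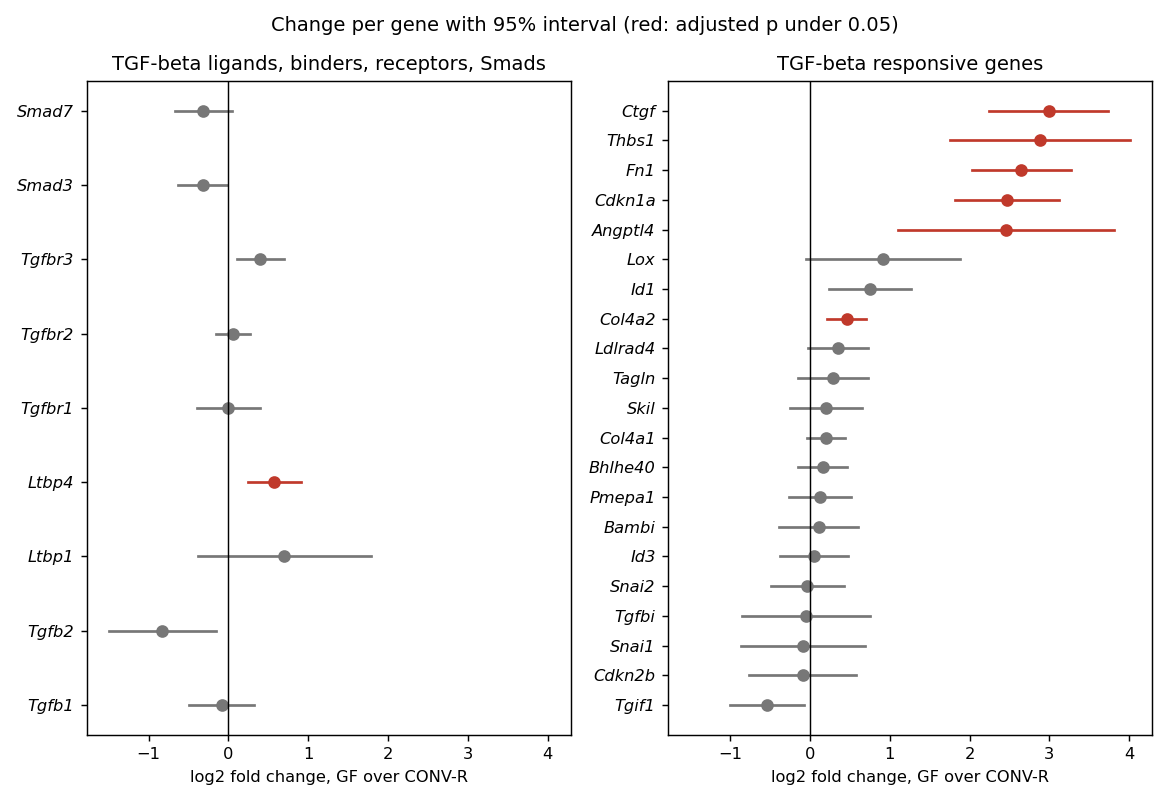
Log2 fold change (GF over CONV-R) with its 95% confidence interval from edgeR's quasi-likelihood fit, for the 9 genes (left) and the 21 tested TGF-β responsive genes (right). Points in red passed the test at an adjusted p of 0.05, which among the 9 genes was *Ltbp4* alone, at 0.58.

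Since *Ltbp4* is the gene that passed, its promoter sequences are shown, with that of *Tgfb2*, which holds the Smad-binding core, beside them. Each window of 300 bases runs 5′ to 3′ along the gene's strand across a transcription start, as RefSeq places it on GRCm38.p6, with most of its length before the start. RefSeq lists 3 such windows for *Ltbp4*, 2 of which overlap almost wholly, which leaves 2 separate start regions. Capitals mark the Smad-binding core CAGAC and the GC box GGGCGG, each searched on both strands (GTCTG and CCGCCC), with overlapping copies joined.
Ltbp4, upstream start region, chr7:27337563-27337862, minus strand: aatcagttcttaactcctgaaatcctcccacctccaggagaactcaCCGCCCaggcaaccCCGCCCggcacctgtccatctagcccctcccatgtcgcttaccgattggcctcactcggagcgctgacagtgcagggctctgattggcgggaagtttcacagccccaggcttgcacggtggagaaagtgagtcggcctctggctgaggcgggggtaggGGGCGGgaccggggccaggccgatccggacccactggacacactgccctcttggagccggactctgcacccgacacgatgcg
Ltbp4, downstream start region, chr7:27333614-27333913, minus strand: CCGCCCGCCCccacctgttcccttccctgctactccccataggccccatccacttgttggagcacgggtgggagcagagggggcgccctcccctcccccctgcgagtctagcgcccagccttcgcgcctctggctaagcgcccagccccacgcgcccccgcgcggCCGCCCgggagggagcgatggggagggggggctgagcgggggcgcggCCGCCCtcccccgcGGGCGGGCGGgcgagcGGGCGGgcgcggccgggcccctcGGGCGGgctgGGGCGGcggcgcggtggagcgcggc
Tgfb2, chr1:186705940-186706239, minus strand: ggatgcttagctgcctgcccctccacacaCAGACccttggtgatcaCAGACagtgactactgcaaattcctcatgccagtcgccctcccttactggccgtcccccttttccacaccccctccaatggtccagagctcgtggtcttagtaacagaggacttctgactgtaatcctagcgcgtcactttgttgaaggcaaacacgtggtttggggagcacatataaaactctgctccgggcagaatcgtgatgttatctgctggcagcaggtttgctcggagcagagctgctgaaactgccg

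No *Ltbp4* window held the CAGAC core, whereas the *Tgfb2* window held it at 2 places. *Ltbp4* was not alone in this, since the windows of *Tgfb1* and *Smad3* and 1 of the 2 *Tgfbr1* windows also lacked the core and held 6, 2 and 2 GC boxes, whereas those of *Tgfbr2* and *Ltbp1* held the core and no GC box. The core is common in windows of this length, occurring in 49.6% of all 32851 promoter windows of the table. The GC box, found in 35.7% of them, occurred 3 times in the upstream and 9 times, overlapping copies included, in the downstream *Ltbp4* region. Their GC contents were 64.3% and 81.3%, compared with 54.3% for *Tgfb2*. The palindrome GTCTAGAC, to which Smads also bind, was found in 0.213% of all windows and in none of those of the 9 genes that are listed. A match describes these letters only, and the lack of one says only that they are not in this window.

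*Tgfb1* (chromosome 7, 25687002 to 25705077, GRCm38, plus strand) encodes the main ligand. The CONV-R libraries gave 46.5 to 101 CPM (normalised read counts, scaled to libraries of equal size), with a median of 82.9, and the GF libraries gave 79.5, 71.4, 111, 52.6 and 64.6. The GF values lay on both sides of the CONV-R median. Means were 75.8 ± 22.0 (SD, n = 5) in GF and 80.3 ± 19.0 (SD, n = 6) in CONV-R. The Log2FC was -0.08 (SE 0.19, adjusted p = 0.848 by Benjamini-Hochberg in edgeR's test), and its 95% interval of -0.49 to 0.33 leaves room for a change of either sign.

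*Tgfb2* (chromosome 1, 186622792 to 186705989, minus strand), a ligand that depends on TGFBR3 for efficient binding to TGFBR2, was far scarcer. Its CPM were 6.44, 6.69, 9.58, 6.67, 16.8 and 12.7 in CONV-R replicates 1 to 6, and 5.07, 9.66, 4.10, 5.16 and 3.53 in GF replicates 1, 2, 4, 5 and 6. Apart from GF replicate 2, every GF value was below every CONV-R value. The Log2FC was -0.83 (SE 0.32, 95% interval -1.498 to -0.16), and the adjusted p of 0.126 by edgeR's quasi-likelihood test missed the threshold. Without GF replicate 2 the Log2FC became -1.13 with an adjusted p of 0.0444, so that this library decided the call. These values rest on 286 counts over the GF and 714 over the CONV-R libraries. The antisense gene *Gm29491* shares 124 of the 5791 exonic bases of *Tgfb2*, and since the libraries were built from double-stranded cDNA without a mark of strand, their reads cannot be told apart there.

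*Ltbp4* (chromosome 7, 27305136 to 27337692, minus strand, 35 exons in the annotation) encodes an LTBP that binds the latent TGF-β1 complex and takes part in elastic fibre assembly. In CONV-R its CPM were 900.5, 673, 909, 649, 699 and 759 in replicates 1 to 6. In GF they were 1585, 895, 1226, 774 and 1223 in replicates 1, 2, 4, 5 and 6. GF replicates 1, 4 and 6 thus lay above every CONV-R library, while replicates 2 and 5 lay within the CONV-R range. Means were 1141 ± 319 (SD, n = 5) in GF and 765 ± 114 (SD, n = 6) in CONV-R. The Log2FC was 0.58 (SE 0.16, 95% interval 0.24 to 0.91), with an adjusted p of 0.0353 by Benjamini-Hochberg in edgeR's test, and the gene ranked 779 by p in the table.

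This call was close to the threshold. Leaving out single libraries gave Log2FC values from 0.43 to 0.69, all above 0, but the gene passed in only 4 of those 11 fits. The adjusted p in edgeR's fit became 0.0814, 0.0894, 0.0796 and 0.0677 without CONV-R replicates 2, 4, 5 and 6, and 0.103, 0.0712 and 0.0865 without GF replicates 1, 4 and 6. On the authors' normalised log2 values, where CONV-R libraries spanned 12.5 to 12.95 and GF libraries 12.7 to 13.7, the difference was 0.48 with a limma adjusted p of 0.107. In bulk samples such as these, a difference in transcript per cell and a difference in the number of cells that carry it cannot be told apart.

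*Ltbp1* (chromosome 17, 75005568 to 75392512, plus strand), a related binder of wide tissue distribution, was close to the limit of detection. Its CPM ran from 0.491 to 4.28 in CONV-R, with a median of 2.76, and were 1.11, 5.31, 2.00, 5.95 and 7.87 in GF. The groups overlapped, and both the lowest and the highest replicates of GF lay far from its mean of 4.45. These values rest on 196 counts over the GF and 203 over the CONV-R libraries. The Log2FC of 0.70 had an SE of 0.52 and a 95% interval of -0.39 to 1.79, so a change of moderate size could be missed.

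*Tgfbr1* (chromosome 4, 47353222 to 47414931, plus strand), the type I receptor kinase, had CPM of 35.2 to 77.4 in CONV-R, with a median of 67.5, and of 56.2, 68.4, 62.4, 46.4 and 76.9 in GF. All GF values lay within the CONV-R range. The Log2FC was -0.0023 (SE 0.19), with a 95% interval of -0.40 to 0.39 and an adjusted p of 0.996 in edgeR's test. *Tgfbr2* (chromosome 9, 116084293 to 116175360, minus strand), which binds the ligand first, was more abundant and more even, at 420 to 537 CPM in CONV-R, with a median of 464, and 483, 485, 495, 424 and 557 in GF. Its Log2FC was 0.06 (SE 0.10, adjusted p = 0.780 in edgeR's test), and the interval of -0.15 to 0.27 was the narrowest among the 9 genes.

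*Tgfbr3* (chromosome 5, 107106570 to 107289629, minus strand) encodes betaglycan, a co-receptor without kinase activity that presents ligand to TGFBR2. Its CPM were 379, 423, 242, 349, 351 and 411 in CONV-R replicates 1 to 6, and 506, 454, 551, 356 and 507 in GF replicates 1, 2, 4, 5 and 6. Apart from GF replicate 5, every GF library lay above every CONV-R library. The means were 475 ± 74.7 (SD, n = 5) and 359 ± 65.0 (SD, n = 6). The Log2FC of 0.40 (SE 0.14, 95% interval 0.11 to 0.70) did not pass, with an adjusted p of 0.0933 by edgeR's quasi-likelihood test. Without GF replicate 5 it was 0.49 with an adjusted p of 0.0314, so here too 1 library decided the call. The uncharacterised entry *Gm43422*, on the same strand, shares 297 of the 6545 exonic bases of *Tgfbr3*.

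*Smad3* (chromosome 9, 63646767 to 63757994, minus strand), the receptor-activated Smad that carries the signal to the nucleus, had CPM of 39.5 to 52.3 in CONV-R, with a median of 47.8. The GF libraries gave 37.6, 50.6, 35.0, 34.5 and 28.5, of which all but replicate 2 lay below the CONV-R range. The Log2FC was -0.32 (SE 0.15, 95% interval -0.63 to -0.01, adjusted p = 0.198 by edgeR's quasi-likelihood test). *Smad7* (chromosome 18, 75367529 to 75395935, plus strand), the inhibitory Smad that blocks the receptor and is itself a target of the pathway, had CPM of 61.9 to 122 in CONV-R, with a median of 86.2, and of 96.7, 68.1, 74.5, 66.5 and 52.0 in GF. The groups overlapped broadly, and the Log2FC was -0.31 (SE 0.17, 95% interval -0.67 to 0.05, adjusted p = 0.287 by the same edgeR test).

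**Figure D2:**
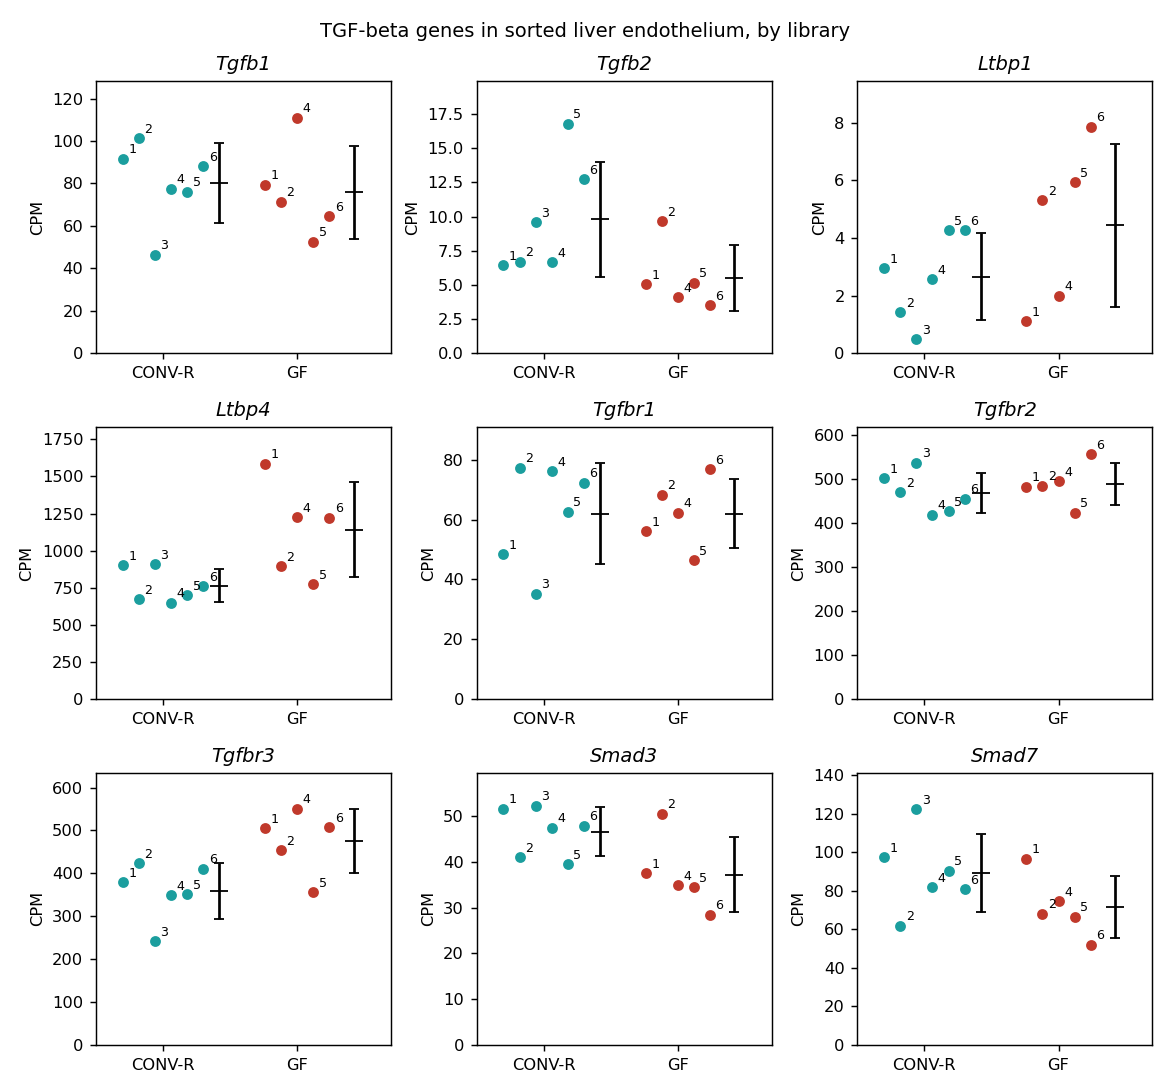
Normalised read counts (CPM) of the 9 genes in each of the 6 CONV-R and 5 GF libraries, with the group mean and SD, each panel on its own axis from 0. *Ltbp4* in GF runs from 774 to 1585 against 649 to 909 in CONV-R, and no gene has groups that separate fully.

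Levels of different genes were compared as CPM per kilobase (kb) of exonic length. *Ltbp4* stood highest, with means of 176 ± 49.3 (SD, n = 5) in GF and 118 ± 17.7 (SD, n = 6) in CONV-R, and it was above *Tgfbr3* in 11 of 11 libraries without overlap of their ranges. Averaged over all libraries, *Tgfbr3* followed at 62.9 and *Tgfbr2* at 58.4 CPM per kb, and these neighbours did not separate, *Tgfbr3* being the higher in 9 of 11 libraries. *Smad7* (17.9) and *Tgfb1* (15.5) formed the next such pair, with *Smad7* higher in 8 of 11. *Tgfbr1* (9.50) was above *Smad3* (7.65) in 9 of 11. *Tgfb2* (1.36) and *Ltbp1* (0.325) were the scarcest, with *Tgfb2* higher in 10 of 11 and overlapping ranges. The type II receptor and the co-receptor were thus above the type I receptor, and *Ltbp4* above *Ltbp1*, in each library.

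**Figure D3:**
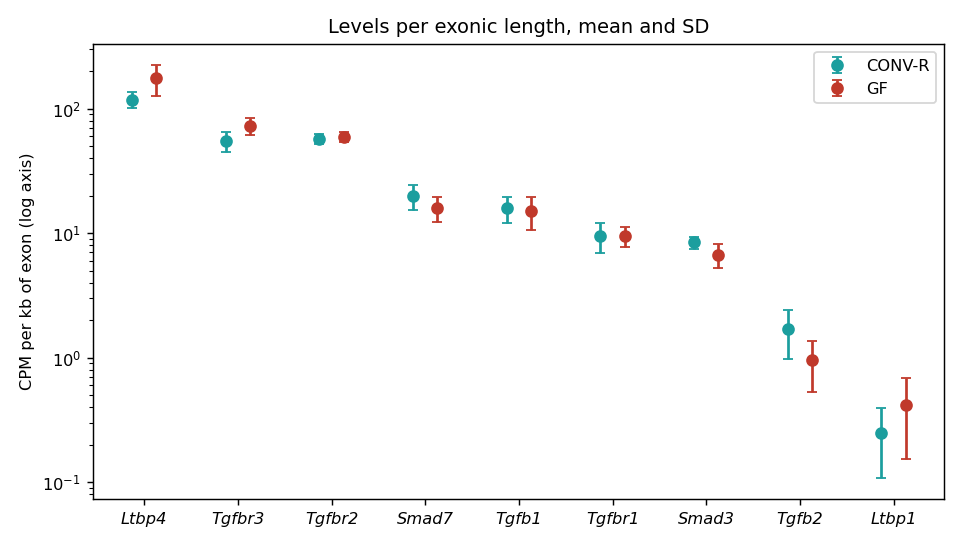
Level of each of the 9 genes in CPM per kb of exonic length on a log axis, as mean and SD of each group, ordered by the mean over all 11 libraries. *Ltbp4* (145 on average) lies above all others, and *Ltbp1* (0.325) has the lowest mean.

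Single libraries departed from their group across several genes at once. CONV-R replicate 3 was at an end of its group for 8 of the 9 genes, the lowest in *Tgfb1*, *Tgfbr1*, *Tgfbr3* and *Ltbp1* and the highest in *Tgfbr2*, *Smad3*, *Smad7* and *Ltbp4*. It also stood apart over the whole table, at -48.1 on the second principal component against 6.01 to 17.6 for the other CONV-R libraries. Without it *Ltbp4* had a Log2FC of 0.63 (adjusted p = 0.0258 in edgeR's test). GF replicate 5 was the lowest GF library for *Tgfb1*, *Tgfbr1*, *Tgfbr2*, *Tgfbr3* and *Ltbp4*. GF replicate 6 held an end of its group for 6 genes, the lowest in *Tgfb2*, *Smad3* and *Smad7* and the highest in *Tgfbr1*, *Tgfbr2* and *Ltbp1*, and lay farthest out on the first principal component, at 61.2 against 11.7 to 34.3 for the other GF libraries. Without it *Ltbp4* did not pass, as given above. CONV-R replicate 3, GF replicate 5 and GF replicate 6 also had the lowest totals of all libraries, at 7922855, 7242717 and 7819846 counts. The part of depth in these departures was not tested.

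**Figure D4:**
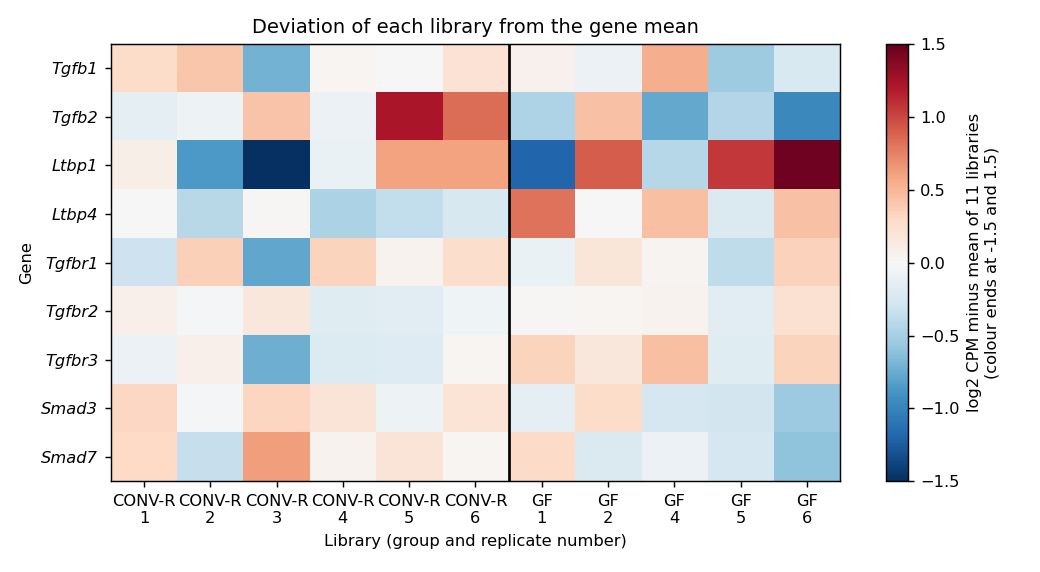
Difference of each library's log2 CPM from the mean of all 11 libraries, as a colour scale that ends at -1.5 and 1.5, with libraries in columns and the 9 genes in lines. CONV-R replicate 3, GF replicate 6 and GF replicate 5 hold an end of their group for 8, 6 and 5 of the genes respectively.

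The gene whose pattern was most like that of *Ltbp4* was *Acvrl1*, the endothelial type I receptor also called ALK1. After group means were removed, log2 CPM of this pair had a Pearson correlation of 0.97 over the 11 libraries, the highest of all genes tested, followed by *Tcf7l1* (0.95) and *C5ar2* (0.92). Within groups it was 0.98 over 5 GF and 0.93 over 6 CONV-R libraries, given as a description because the points share a library and its depth. *Acvrl1* itself gave 24.3 to 35.8 CPM in CONV-R, and 55.3, 35.9, 45.6, 27.9 and 46.9 in GF. Its Log2FC was 0.52 (SE 0.17, adjusted p = 0.0683 by edgeR's quasi-likelihood test), short of the threshold. Without GF replicate 5 it was 0.64 and passed in edgeR's test (adjusted p = 0.0169). *Acvrl1* also passed in edgeR's test with the replicate block (0.0412) and in DESeq2 (0.0401). Among the 9 genes the closest pair was *Tgfb1* with *Tgfbr3* (0.92) and the most opposed was *Tgfbr1* with *Smad7* (-0.75).

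**Figure D5:**
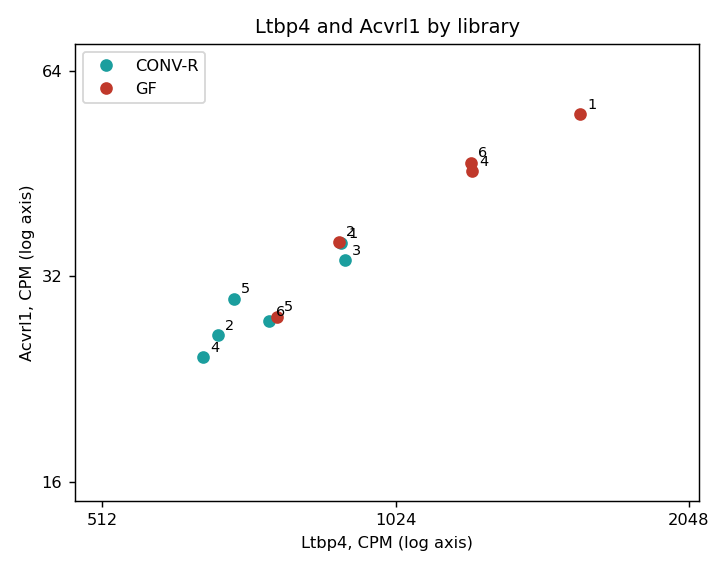
CPM of *Ltbp4* against CPM of *Acvrl1* in the 5 GF and 6 CONV-R libraries, on log axes. GF replicates 1, 4 and 6 lie highest on both axes, and GF replicate 5 lies among the CONV-R libraries.

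The wider pathway was described through lists of genes beside the 9. Of 19 genes of latent complex storage and activation, 14 passed the filter, 4 of which rose in GF, beside 4.8% of all genes tested, with a median Log2FC of 0.28 (-0.01 over all genes). None fell in edgeR's test of all libraries, where 1 lower gene had an unadjusted p under 0.05, and DESeq2 called 4 and limma-voom 2 genes in all. *Fbn1*, the microfibril protein to which LTBPs attach, rose with a Log2FC of 1.09 (SE 0.25, adjusted p = 0.0132 by edgeR's quasi-likelihood test), from 35.1 to 88.9 CPM in CONV-R to 254, 111, 95.03, 104 and 109 in GF, with no overlap. Without GF replicate 1, the highest, the Log2FC remained at 0.72 and the adjusted p of edgeR's fit at 0.0305. The integrin subunits *Itgb3* (1.37) and *Itgb5* (1.38), which bind the latent complex, rose also, as did *Thbs1* (2.88), a matrix protein able to activate it. *Itgb3* reached 275 CPM in GF replicate 1, and without that library the Log2FC was 0.83 with an adjusted p of 0.0895 in edgeR's fit. The adjusted p was 0.0505 without CONV-R replicate 4, 0.0527 without GF replicate 2 and 0.0521 with limma-voom, and on the deposited log2 values limma gave 0.109. *Itgb5* lost its call without CONV-R replicate 2 or 4 or GF replicate 6, with an adjusted p of up to 0.0841 in that fit. *Thbs1* gave 23.5, 21.5, 1.52, 21.3 and 10.7 CPM in GF, so that replicate 4 lay within the CONV-R range of 0.478 to 4.52, and limma-voom gave it an adjusted p of 0.0520. The abundant genes of this list, *Itgb1* (0.38), *Lrrc32* (0.40), *Tgm2* (-0.27) and *Emilin1* (-0.39), did not pass with all libraries. *Emilin1* passed as lower without GF replicate 6 (Log2FC -0.48, adjusted p = 0.0487 in edgeR's test), and *Itgb1* as higher without GF replicate 5 (adjusted p = 0.0383).

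None of the 6 tested genes among the other ligand, receptors and co-receptors passed in edgeR's test, although 1 had an unadjusted p under 0.05, and DESeq2 called 1 and limma-voom none. That gene was *Acvrl1*. *Eng*, which encodes endoglin, had a Log2FC of 0.26, the matrix proteoglycan gene *Bgn* one of 0.08, *Tgfbrap1* one of -0.11 and the ligand gene *Tgfb3* one of 0.61. None of the 26 Smads and Smad regulators passed in edgeR, DESeq2 or limma-voom, while 5 had an unadjusted p under 0.05 in edgeR, 1 higher and 4 lower. Their median Log2FC was 0.08, with 0.06 for *Smad2* and 0.22 for *Smad4*, the partner that the activated Smads share. The most abundant regulators had Log2FC of 0.25 (*Crebbp*), -0.29 (*Hipk2*), 0.19 (*Ep300*) and 0.09 (*Fkbp1a*).

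Genes known to respond to TGF-β did not move as one. Of 30 such genes 21 passed the filter, 6 of which rose in GF, beside the same 4.8% of all genes tested, with a median Log2FC of 0.21. None fell in edgeR's test, where 1 lower gene had an unadjusted p under 0.05. DESeq2 called 7 and limma-voom 5 genes in all. Those that rose were *Ctgf* (2.99), *Thbs1* (2.88), *Fn1* (2.65), *Cdkn1a* (2.47), *Angptl4* (2.46) and *Col4a2* (0.46). *Thbs1* was also counted above among the storage and activation genes. The list of responsive genes further shares members with the Smad regulators, *Skil*, *Pmepa1*, *Bambi* and *Tgif1* among them. *Ctgf* and *Thbs1* encode matricellular proteins, *Fn1* and *Col4a2* matrix proteins, *Cdkn1a* the cell cycle inhibitor p21 and *Angptl4* an inhibitor of lipoprotein lipase, and all are controlled by other signals as well. The groups did not overlap for 4 of them, *Ctgf*, *Fn1*, *Cdkn1a* and *Angptl4*, where 3.22% of all tested genes were higher in GF without overlap. *Ctgf*, *Fn1* and *Cdkn1a* are also among the genes the study picked from these libraries and are no independent evidence of the list's direction. Other responsive genes did not pass, among them *Skil*, *Pmepa1*, *Bambi*, *Tgfbi* and *Tgif1*, with Log2FC of 0.21, 0.13, 0.11, -0.05 and -0.54. Nor did *Col4a1* (0.20) or *Id3* (0.05), which are abundant here. *Id1*, a target of BMP and ALK1 signals and the relative of *Id3*, had a Log2FC of 0.75 with an adjusted p of 0.0715 in edgeR's test, while DESeq2 gave 0.0357 and edgeR without a filter on low counts 0.0202. It also passed in edgeR's test without CONV-R replicate 1 (0.0430) or 3 (0.0411) or GF replicate 2 (0.0424). *Col1a1*, *Col3a1* and *Acta2* were among the 9 genes of the list that failed the filter. *Angptl4*, at no more than 2.40 CPM in any library, lost its call without CONV-R replicate 2 or 4 or GF replicate 1 or 2, with an adjusted p of up to 0.0645 in edgeR's test. *Col4a2* lost it without CONV-R replicate 5 or 6 or GF replicate 2 or 6, with one of up to 0.0552, and on the deposited log2 values limma gave 0.0644.

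Markers of other cells were read beside these results. Sinusoidal markers summed to 40959 to 59525 CPM in GF and 43203 to 53368 in CONV-R, and none of 16 passed in edgeR, DESeq2 or limma-voom, with 7 at an unadjusted p under 0.05, all higher in GF. Their Log2FC ran from 0.33 (*Cdh5* and *Stab1*) to 0.63 (*Lyve1*), and the median of the list was 0.30. In edgeR's test without a filter on low counts *Lyve1* passed, with an adjusted p of 0.0175. The most abundant, *Stab2*, *Dnase1l3* and *Mrc1*, had Log2FC of 0.01, -0.10 and 0.11. Markers of other vessels summed to 1319 to 2238 CPM in GF against 960 to 1303, with 3 of 10 tested genes passing, all higher (*Ly6a*, *Gja4* and *Cd34*). At an unadjusted p under 0.05, 5 were higher and 1 lower in edgeR's test, with *Ly6a*, *Sox17* and *Efnb2* the most abundant, and GF replicate 1, the library with most *Ltbp4*, *Fbn1* and *Itgb3*, was the highest. Kupffer cell markers summed to 271 to 1188 CPM in GF against 108 to 283, with 9 of 12 passing, all higher, *Clec4f*, *Lyz2* and *Cd5l* the most abundant and GF replicate 6 the highest. That library also had the highest *Fn1* (62.7 CPM), whose Log2FC without it was 2.28. Platelet markers ran from 76.7 to 291 CPM in GF and from 48.2 to 83.2 in CONV-R, where *Itgb3*, itself on that list, was the most abundant, ahead of *Gp1ba* and *Ppbp*, and the only gene that passed. Stellate cell and fibroblast markers reached 14.97 CPM in GF and 12.3 in CONV-R, with 2 of 13 passing the filter and none edgeR's test, although 1 had an unadjusted p under 0.05 and DESeq2 and limma-voom each called 1, and *Lrat*, *Dcn* and *Reln* were the most abundant. Lymphocyte and natural killer cell markers gave 21.0 to 41.9 CPM in GF against 19.3 to 40.1, with a median Log2FC of -1.20 over the 4 tested. None of these passed in edgeR's test, with 2 lower at an unadjusted p under 0.05, while DESeq2 and limma-voom each called 1. Hepatocyte markers, led by *Alb*, *Cyp2e1* and *Ttr*, gave 31.5 to 69.6 CPM in GF against 23.2 to 63.97. None of their 9 tested genes passed in edgeR, DESeq2 or limma-voom, with 1 at an unadjusted p under 0.05 in edgeR. No marker was at 0 in all libraries, and apart from the values without single libraries given here, the part of these cells in the results was not tested. Library totals were 7242717 to 16164588 counts, with medians of 10425837 in GF and 12425849 in CONV-R (two-sided exact permutation test of the means, p = 0.411).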

How the data were processed

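RNA of sorted liver ECs was sequenced from 6 CONV-R and 5 GF mice, 1 library per mouse, grouped by the sample labels. The authors deposited raw counts per gene, for which 50-base single-end reads were trimmed with Trim Galore 0.4.4, mapped to GRCm38 with STAR 2.5.2b and counted with featureCounts 1.5.2, versions as in the submitters' processing notes. They also deposited log2 values normalised across libraries with DESeq. The annotation release and the strand setting are not given in the sources used here, and whole-transcriptome amplification before sequencing can distort the levels of weakly expressed genes.

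Counts were filtered with filterByExpr, scaled by TMM and tested with the quasi-likelihood test of edgeR 4.0.16 (R 4.3.3), with no covariate and Benjamini-Hochberg adjustment over 12905 genes at 0.05. CPM use TMM-scaled library sizes, so 1 count stood for 0.0650 to 0.136 CPM. DESeq2 1.42.0, limma 3.58.1 (voom, and limma on the deposited log2 values), other filters and size factors, a replicate block and each library left out were alternatives. On simulated counts with 200 genes changed by 1 on the log2 scale among 12968, edgeR recovered 62.5%, and 8.09% of its calls were false.

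Positions and exonic lengths came from GENCODE M21, which matched 29081 of 29307 identifiers. Promoters came from RefSeq (GRCm38.p6), with windows listed for 7 of the 9 genes. *Tgfbr3* is not in that table, and none is shown for *Smad7*.

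The 9 genes, the lists and the marker lists were chosen with earlier results of these data known. Named by rule were the 9 genes, the genes of each pathway list that passed and up to 4 of its most abundant, the 3 most abundant genes of each marker list, and the 3 genes most like each of the 9 that passed (Pearson correlation of log2 CPM, prior count 2, group means removed). Other genes were named after their values were seen. Values of 1 marker gene and 1 responsive gene are not reported here.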

Additional observations from a re-analysis of the deposited data

Results flagged for a closer look

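*Tgfb2* in GF replicate 2 stood at 9.66 CPM, while the nearest other GF library had 5.16. This gap took up a share of 0.734 of the whole range of the GF group, above the critical value for 5 samples in Dixon's test. It was the only such case among the 18 sets of values examined (9 genes in 2 groups), and chance gives about 1 in 20.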

How the results depend on the processing

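The call of *Ltbp4* among the 9 genes was kept under every count-based alternative with all libraries or with the 10 that share a number, and was lost on the deposited log2 values, where 0 genes were called. Leaving out 1 library gave 0 to 2 calls, because *Tgfb2* (without GF replicate 2) and *Tgfbr3* (without GF replicate 5) joined it. Over the whole table DESeq2 called 1535 genes instead of 965, and leaving out 1 library gave 622 to 1260, with 622 without GF replicate 6 and 625 without CONV-R replicate 4. Of the storage and activation genes 2 were called by limma-voom, 2 with at least 10 counts in every library and 2 to 5 with 1 library left out. Among the other ligand and co-receptors DESeq2 called 1, and 0 to 1 were called with 1 library left out, as among the Smad regulators. The responsive genes called numbered 5 to 7 with 1 library left out, 4 with at least 10 counts in every library, 7 by DESeq2, without a filter or with the replicate block, and 5 by limma-voom or on the deposited values. The direction of *Tgfbr1*, near 0 throughout, turned to 0.0060 with limma-voom and 0.043 on the deposited values, and ran from -0.12 to 0.085 with 1 library left out. That of *Tgfb1* ran from -0.26 to 0.023. The cause was not tested. *Ltbp1* was not tested at a minimum of 10 counts.

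The labels share 5 replicate numbers between groups, but the mice differ, the correlations of same-numbered deviations ran from -0.01 to 0.20, and only 3 of 10 libraries correlated best with their own number. With the replicate block 1101 genes were called, against 931 in the same libraries without it, 1 of them among the 9 genes in both fits. The block gave 1 call among the other ligand and co-receptors and 1 among the Smad regulators (also 1 without it). With 5 and 6 mice, and fewer than 300 counts over the GF libraries for *Tgfb2* and *Ltbp1*, changes of moderate size can be missed.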

Other observations

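Outside the comparison, the patterns of the genes that did not pass can be set beside all tested genes in the same way as for *Ltbp4*, with group means removed and over 11 libraries. These genes were named after their values were seen, and the correlations are descriptions of points that share libraries and depth. *Zdhhc5*, which encodes a palmitoyltransferase, was the closest gene to *Tgfbr3* (0.98) and among the closest 3 to *Tgfb1* (0.93). The closest to *Tgfbr1* was *Tnpo1* (0.97), a nuclear import receptor gene, and to *Tgfb2* it was *Itga2b* (0.92), a platelet integrin gene with a mean of only 2.62 CPM.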
